A study of Mus musculus with 16 samples.

Results

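Glucose uptake and glycolysis were described through 10 genes: the transporters Slc2a1 and Slc2a4, the hexokinases Hk1 and Hk2, the phosphofructokinases Pfkm and Pfkp, the phosphatase Fbp2, the aldolase Aldoa, the pyruvate kinase Pkm and the lactate dehydrogenase Ldha. They were found by symbol: every probe set whose platform annotation gives exactly 1 gene symbol, equal to one of these, was taken. This gave 18 probe sets for all 10 genes, of 20380 such probe sets for 12393 genes on the array. The samples were left ventricles of C57BL/6J mice aged 12 to 14 weeks, taken 14 days after surgery, with 1 animal per array. The groups were male TAC, male sham, female TAC and female sham, each with 4 arrays. TAC, transverse aortic constriction, is a band on the aortic arch that raises the pressure the left ventricle pumps against, and the control animals had a sham operation. All mice carried the C57BL/6J background with no other allele given in the labels. The study's title names a sex-specific early response, so each operation was compared within each sex and the responses of the sexes were then set against each other.

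Glucose enters a cardiac muscle cell through GLUT1, the basal transporter encoded by Slc2a1, and GLUT4, the transporter encoded by Slc2a4 that insulin and contraction move to the cell surface. Hexokinase traps it as glucose 6-phosphate, phosphofructokinase commits it to glycolysis, and aldolase, pyruvate kinase and lactate dehydrogenase act further down the path. The healthy adult heart takes most of its energy from fatty acids, while the fetal and the hypertrophied heart are known to rely more on glucose. Several steps have isoforms with different tissue patterns. Slc2a4, Hk2, Pfkm and Fbp2 are the forms typical of muscle, and Slc2a1, Hk1 and Pfkp are widely expressed or typical of other tissues.

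The start sites of 3 of the genes whose signal changed most after TAC are shown, since each of them has a single start window in the RefSeq promoter table of build GRCm38.p6, which runs from 250 bases before to 50 bases after the start of transcription. The Slc2a1 window is chr4:119108495-119108794 on the plus strand, the Pfkp window chr13:6648722-6649021 on the minus strand and the Fbp2 window chr13:62858351-62858650 on the minus strand. Each is written 5′ to 3′ along its gene. Capitals mark the letters ACGTG or GCGTG read on either strand, which form the core of the element that hypoxia-inducible factors recognise.
Slc2a1: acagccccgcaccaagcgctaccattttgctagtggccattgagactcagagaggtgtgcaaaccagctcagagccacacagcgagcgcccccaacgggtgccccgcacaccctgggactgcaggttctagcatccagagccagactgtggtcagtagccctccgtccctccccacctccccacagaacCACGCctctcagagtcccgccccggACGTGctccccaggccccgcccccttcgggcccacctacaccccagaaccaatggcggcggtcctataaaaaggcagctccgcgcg
Pfkp: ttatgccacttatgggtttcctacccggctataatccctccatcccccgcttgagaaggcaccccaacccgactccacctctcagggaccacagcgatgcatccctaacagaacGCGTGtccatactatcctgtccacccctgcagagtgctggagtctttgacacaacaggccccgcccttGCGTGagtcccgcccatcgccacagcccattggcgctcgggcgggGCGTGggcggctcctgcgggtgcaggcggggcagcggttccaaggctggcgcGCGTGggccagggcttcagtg
Fbp2: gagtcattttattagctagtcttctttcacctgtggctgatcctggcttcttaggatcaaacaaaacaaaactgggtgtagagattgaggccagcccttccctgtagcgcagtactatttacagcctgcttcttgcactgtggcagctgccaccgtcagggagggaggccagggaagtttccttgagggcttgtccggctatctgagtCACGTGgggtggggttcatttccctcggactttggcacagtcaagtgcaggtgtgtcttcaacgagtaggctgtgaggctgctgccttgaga
The core occurred at 2 places in the Slc2a1 window and at 4 places in the Pfkp window. The 2 matches in the Fbp2 window overlap, since they are the 2 strands of a single CACGTG, the E-box palindrome. Of the 10 genes, 9 had a window (Slc2a4 had none), with 17 windows in all, and 13 of the 17 held the core at least once, against 43.8% of all 32851 windows of this length. Windows of 1 gene can overlap, as 2 of Pfkm and 2 of Aldoa do, so that the 17 windows cover 15 separate regions, 11 of which held the core. The E-box CACGTG, which always contains the core, was in 3 of the 17 windows, against 7.15% of all windows. The GC box GGGCGG was in 7 of the 17, against 35.7% of all windows, and CCAAT was in 6, against 37.4%. TATAAA was found in 1 window, that of Slc2a1, against 13.6% of all windows, and the MEF2 consensus in 0, against 3.19%. These are matches of letters on both strands and say nothing of binding.

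Values below are the authors' scaled array signals, on a linear scale, and every fold change is a difference of group means of log2(signal + 16). Of the 18 probe sets, 17 passed a filter that leaves out the dimmest 40% of the array, and the 18th, Pfkp 1430634_a_at, did not. Where a gene had several probe sets, the one with the highest mean over the 16 arrays is called its main probe set. A change was called where limma's adjusted p over all 13576 tested probe sets was below 0.05. In males 5 of the 17 probe sets were called, 1 higher and 4 lower in TAC, while 17.8% of all tested probe sets were called, 8.07% higher and 9.77% lower. In females 7 of the 17 were called, 3 higher and 4 lower, against 15.1% of all, 6.46% higher and 8.6% lower. Averaged over the sexes 7 of the 17 were called, 3 higher and 4 lower, against 28.7% of all, 12.9% higher and 15.8% lower. Counted by gene on the main probe sets, 5 of the 10 genes changed in the average: Slc2a1 and Pfkp rose, and Slc2a4, Pfkm and Fbp2 fell. The median absolute log2 fold change of the 10 main probe sets in the average was 0.37, against 0.24 over all tested probe sets. The 2 medians rest on unlike sets, since the first takes 1 probe set per gene and leaves out the other member probe sets. The 10 genes were also chosen with earlier results of these data known, so the difference of the medians is no test. Array values of the 2 operations did not overlap for 5 of the 17 probe sets in males and for 6 of 17 in females, against 19.6% and 19.9% of all tested probe sets.

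**Figure D1:**
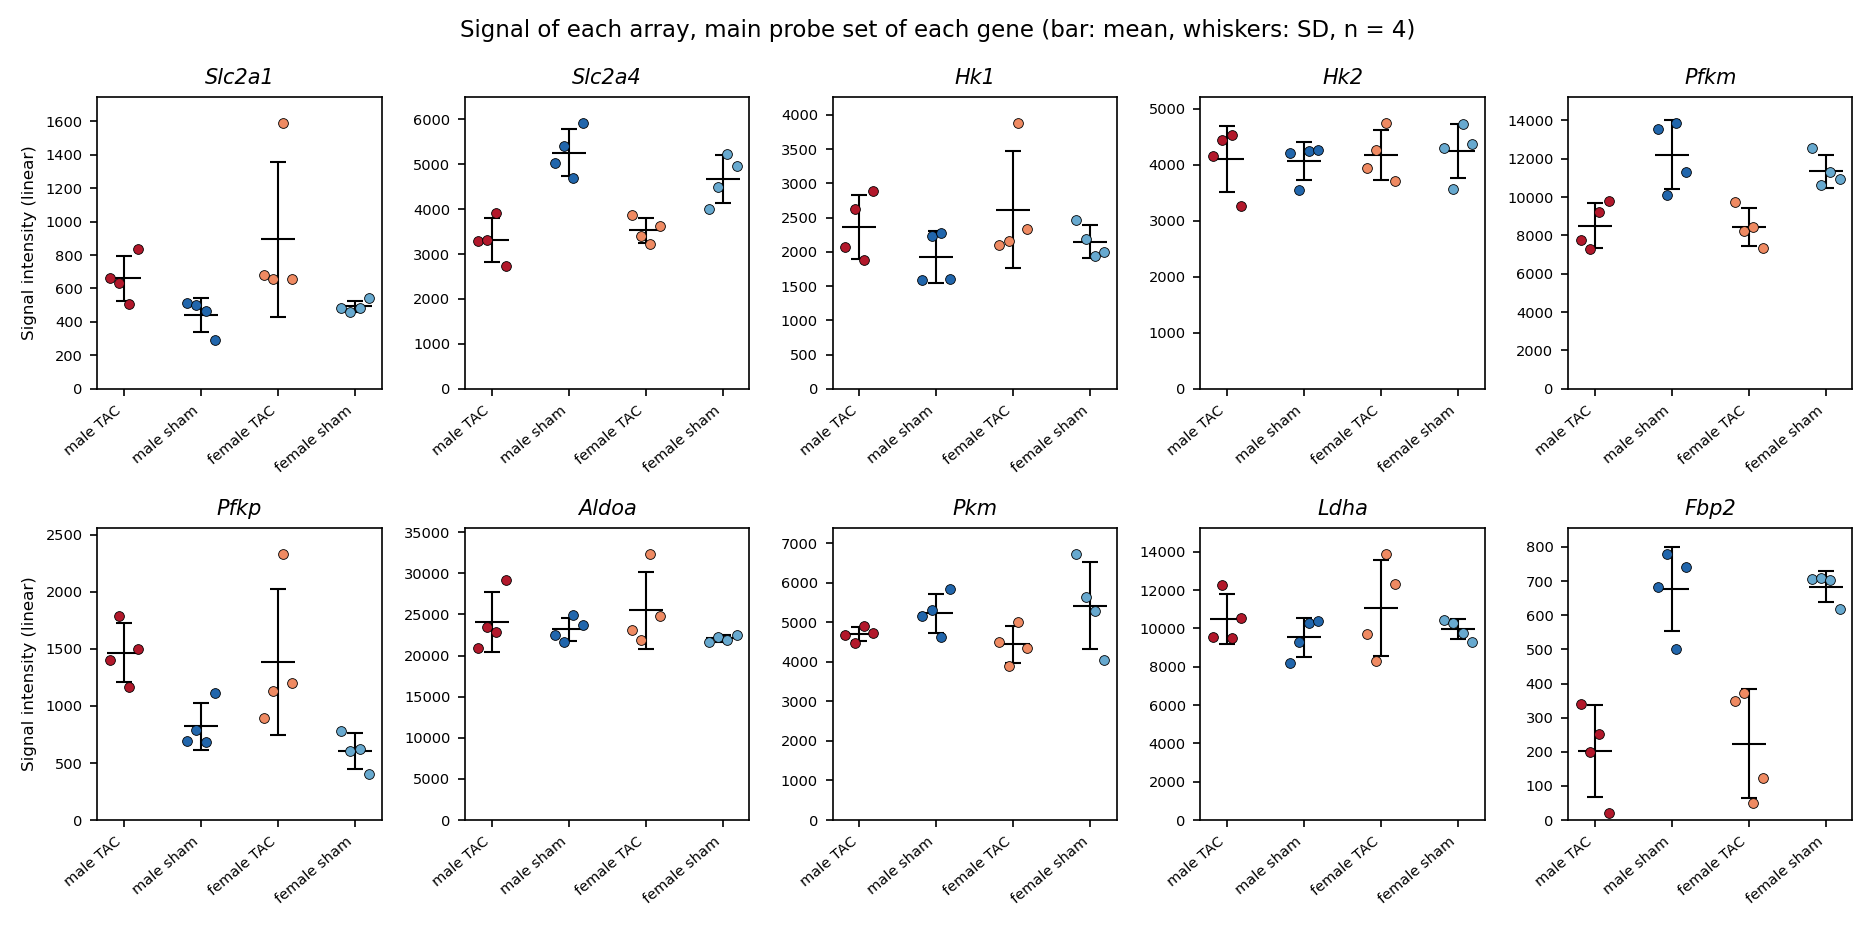
Signal (linear scale, vertical axis from 0) of each array for the main probe set of the 10 genes, by group along the horizontal axis. Points are arrays, the bar is the mean of 4 and the whiskers the SD. TAC arrays lie below sham arrays for Slc2a4, Pfkm and Fbp2 and above them for Pfkp, without overlap in either sex, while the groups overlap for Hk1, Hk2, Aldoa, Pkm and Ldha.

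The transporter of insulin-responsive muscle, Slc2a4, fell after TAC in both sexes on both of its probe sets. On its main probe set 1415958_at the signal was 3298.1, 3308.5, 3919.5 and 2726.8 in male TAC arrays 1, 2, 4 and 5, against 5019.8, 5410.2, 4696.7 and 5915.9 in male sham arrays 1 to 4. In female TAC arrays 1, 2, 3 and 5 it was 3867.6, 3407.7, 3220.9 and 3633.3, against 3996.4, 4494.1, 5227.4 and 4955.6 in female sham arrays 1 to 4. Every TAC array was below every sham array of its sex, with the closest values in females, where TAC array 1 lay just under sham array 1. The log2 fold change was -0.67 in males (SE 0.12, adjusted p = 0.00048), -0.40 in females (SE 0.12, adjusted p = 0.0266) and -0.53 averaged over the sexes (SE 0.08, adjusted p = 6.11e-05). The second probe set, 1415959_at, read 1084.6 ± 227.0 in male TAC and 1970.1 ± 195.8 in male sham, and 964.8 ± 271.1 in female TAC and 2206.7 ± 317.1 in female sham (SD, n = 4 each). Its groups did not overlap in either sex, and its log2 fold changes were -0.87 in males (adjusted p = 0.00263) and -1.22 in females (adjusted p = 0.00019). The 2 probe sets thus gave a fall of different size, and the larger response was in males on the first and in females on the second. In females the call on the main probe set was lost without TAC array 2, TAC array 3, sham array 3 or sham array 4 (adjusted p = 0.0606 to 0.0912). It was also lost with median centring of the arrays (log2 fold change -0.28, adjusted p = 0.126).

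Slc2a1, the basal transporter, was higher in TAC, with a call in females and in the average but not in males. On its main probe set 1434773_a_at the signal was 664.1, 632.9, 507.4 and 834.5 in male TAC arrays 1, 2, 4 and 5, against 511.7, 499.5, 462.7 and 290.8 in male sham arrays 1 to 4. In female TAC arrays 1, 2, 3 and 5 it was 679.0, 653.7, 1588.9 and 654.5, against 484.6, 461.7, 480.4 and 542.3 in female sham arrays 1 to 4. In males TAC array 4 lay just below the highest sham array, and in females the groups did not overlap, with TAC array 3 far above the other female arrays. The log2 fold change was 0.57 in males (SE 0.24, adjusted p = 0.113), 0.73 in females (SE 0.24, adjusted p = 0.0470) and 0.65 averaged over the sexes (SE 0.17, adjusted p = 0.00675). The female call rested on single arrays: without TAC array 3 the value was 0.42 (adjusted p = 0.174), and it was also lost without any 1 of the 4 female sham arrays (adjusted p = 0.0658 to 0.0988) or 1 of 5 male arrays that share the estimate of the spread (0.0509 to 0.0552). It was lost as well with no filter, no intensity trend, array weights or only the female arrays in the fit (adjusted p = 0.0512 to 0.0757). In males, leaving out female TAC array 3 gave adjusted p = 0.0286 for the same 0.57. The call in the average held without any single array.

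The other 2 Slc2a1 probe sets differed from the main one. Probe set 1426599_a_at averaged 315.2 ± 20.6 in male TAC and 269.9 ± 81.2 in male sham, and 487.3 ± 197.1 in female TAC and 263.4 ± 37.6 in female sham. It rose in females (log2 fold change 0.77, adjusted p = 0.0351) although 1 female TAC array lay within the sham range, and it was not called in males (0.25, adjusted p = 0.542). The female call was lost without any 1 of 6 female arrays (adjusted p = 0.0511 to 0.141), among them TAC array 3 (0.55, adjusted p = 0.141). It was lost as well with no filter (adjusted p = 0.0632) and with only the female arrays in the fit (0.0579). Its call in the average (0.51, adjusted p = 0.0295) was lost without any 1 of 7 arrays, female TAC array 3 among them (0.40, adjusted p = 0.0699). Probe set 1426600_at gave 0.07 in the average (95% confidence interval -0.31 to 0.45, adjusted p = 0.811) and was called in no comparison.

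**Figure D2:**
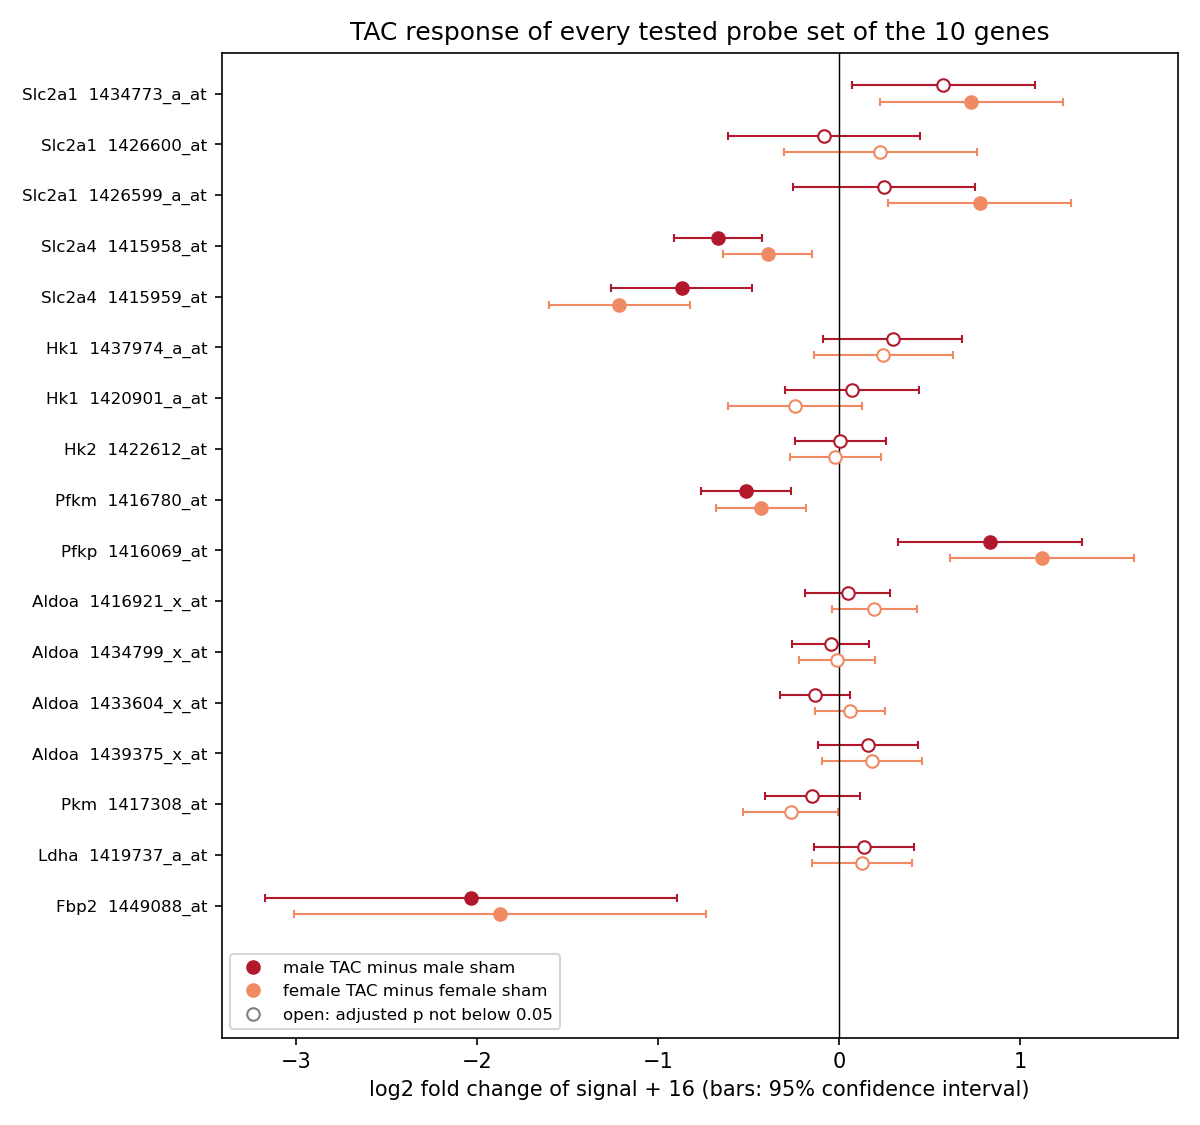
Log2 fold change of signal + 16 (horizontal axis) for each of the 17 tested probe sets of the 10 genes, male TAC minus male sham above female TAC minus female sham, with 95% confidence intervals. Filled points have adjusted p below 0.05: Slc2a4, Pfkm, Pfkp and Fbp2 in both sexes, and Slc2a1 on 2 probe sets in females.

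Within each array, the log2 ratio of Slc2a1 to Slc2a4 signal sets the 2 transporters against each other. Because probe sets differ in affinity, only the change of such a ratio is read, not its level. It was higher in TAC by 1.25 in males and by 1.13 in females on the log2 scale, with no overlap in either sex (exact 2-sided permutation test, p = 0.0286 each, the smallest value 4 against 4 arrays allow, adjusted over 5 pairs 0.0476). Over both sexes, with labels permuted within sex, the change was 1.19 (exact p = 0.000408, the smallest possible, adjusted p = 0.00102). In female TAC array 3 the ratio stood above every other array, and without that array the female change was 0.77.

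The hexokinases catalyse the first step after uptake, and neither was called in any comparison. The main Hk1 probe set 1437974_a_at averaged 2368.2 ± 467.6 in male TAC and 1925.6 ± 378.0 in male sham, and 2617.9 ± 847.6 in female TAC and 2147.2 ± 239.2 in female sham. Its log2 fold change averaged over the sexes was 0.27 (95% confidence interval -0.00 to 0.54, adjusted p = 0.132). The other Hk1 probe set, 1420901_a_at, gave -0.09 (adjusted p = 0.651), so the 2 differed in sign. Hk2, the form typical of insulin-sensitive muscle, averaged 4099.8 ± 585.2 in male TAC and 4065.0 ± 344.6 in male sham, and 4168.7 ± 445.0 in female TAC and 4239.0 ± 484.0 in female sham. Its log2 fold change in the average was -0.01, with a 95% confidence interval of -0.19 to 0.17 (adjusted p = 0.951). The interval of Hk1 was the wider one and reached up to 0.54. The within-array log2 ratio of Hk1 to Hk2 differed by 0.28 over both sexes (exact permutation p = 0.133). Without male TAC array 5 this ratio change was 0.17, and without female TAC array 3 the Hk1 fold change in the average was 0.17. Another Hk1 probe set, whose annotation also names other genes, was not used here.

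At the phosphofructokinase step Pfkm and Pfkp moved in opposite directions in both sexes. Pfkm, the muscle subunit, gave signals of 7785.1, 7294.3, 9207.3 and 9779.4 in male TAC arrays 1, 2, 4 and 5, against 13554.1, 10096.5, 13859.5 and 11324.3 in male sham arrays 1 to 4. In females it gave 9742.0, 8220.5, 8426.6 and 7349.9 in TAC arrays 1, 2, 3 and 5, against 12568.8, 10614.5, 11297.1 and 10932.1 in sham arrays 1 to 4. All TAC arrays were below all sham arrays in both sexes. The log2 fold change was -0.52 in males (SE 0.12, adjusted p = 0.00463), -0.43 in females (SE 0.12, adjusted p = 0.0177) and -0.47 in the average (SE 0.08, adjusted p = 0.000239). In females the call was lost without TAC array 5 (adjusted p = 0.0639) or sham array 1 (adjusted p = 0.0594), and with median centring (-0.32, adjusted p = 0.101).

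Pfkp, the platelet-type subunit, moved the other way. On its main probe set 1416069_at the signal was 1402.1, 1788.6, 1166.5 and 1502.7 in male TAC arrays 1, 2, 4 and 5, against 691.9, 787.4, 687.6 and 1117.6 in male sham arrays 1 to 4. In females it was 894.9, 1126.8, 2328.7 and 1199.0 in TAC arrays 1, 2, 3 and 5, against 784.7, 604.8, 618.7 and 404.5 in sham arrays 1 to 4. The groups did not overlap, and female TAC array 3 was again the highest. Pfkp rose by 0.84 in males (SE 0.24, adjusted p = 0.0212), by 1.12 in females (SE 0.24, adjusted p = 0.00353) and by 0.98 in the average (SE 0.17, adjusted p = 0.00022), all as log2 fold changes. The male call was lost without TAC array 2 (adjusted p = 0.073), sham array 1 (0.0595) or sham array 3 (0.0655). The dim probe set 1430634_a_at, fitted with no filter, gave 0.40 in males (SE 0.65, adjusted p = 0.802) and 0.51 in females (adjusted p = 0.736), with the sign of the main probe set and a wide error. The gene of the liver-type subunit, Pfkl, belongs to the related genes and is given here, after its values were seen, because it is the remaining subunit. It averaged 2013 in male TAC and 1809.8 in male sham, and 2302 in female TAC and 1794 in female sham. It was not called in males (0.14, adjusted p = 0.521), in females (0.36, adjusted p = 0.0792) or in the average (0.25, adjusted p = 0.0531). The within-array log2 ratio of Pfkp to Pfkm was higher in TAC by 1.35 in males and 1.55 in females, without overlap (exact permutation p = 0.0286 each, adjusted p = 0.0476), and by 1.45 over both sexes (exact p = 0.000408, adjusted p = 0.00102).

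Fbp2, the muscle form of fructose bisphosphatase, which runs against phosphofructokinase, had the largest fall of the 10 genes. Its probe set 1449088_at read 340.1, 199.6, 252.2 and 21.5 in male TAC arrays 1, 2, 4 and 5, against 682.4, 778.4, 500.5 and 741.3 in male sham arrays 1 to 4. In females it read 347.8, 372.1, 50.8 and 124.4 in TAC arrays 1, 2, 3 and 5, against 705.1, 710.1, 703.7 and 617.7 in sham arrays 1 to 4. The TAC arrays were scattered and all lay below the sham arrays, the lowest being male TAC array 5 and female TAC array 3. The log2 fold change was -2.03 in males (SE 0.55, adjusted p = 0.0129), -1.87 in females (SE 0.55, adjusted p = 0.0242) and -1.95 in the average (SE 0.39, adjusted p = 0.000653). Of the 8 TAC arrays 3 were below 130.8, the signal at the array's filter limit, so the size of the fall depends on the constant added before the logarithm. With 1 or 64 in place of 16 the average remained called. Without male TAC array 5 the male value was -1.32 and stayed called. Without female TAC array 3 the female value was -1.37 and lost its call (adjusted p = 0.0941), and it was also lost without female TAC array 5 or 1 of the first 3 female sham arrays (adjusted p = 0.0513 to 0.0663). Without both male TAC array 5 and female TAC array 3, an exclusion chosen after seeing the values, Pfkp, Pfkm, Slc2a4 and Fbp2 stayed called in the average, as did Slc2a1, and Fbp2 was then at -1.34.

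The within-array log2 ratio of Pfkm to Fbp2, which sets the forward muscle enzyme against the reverse one, was higher in TAC by 1.52 in males (exact permutation p = 0.0571, adjusted p = 0.0714) and by 1.44 in females (p = 0.0286, adjusted p = 0.0476). In males the groups overlapped, and without male TAC array 5 the change was 0.73. Over both sexes it was 1.48 (exact p = 0.00122, adjusted p = 0.00204). Both genes fell, and Fbp2 fell further.

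**Figure D3:**
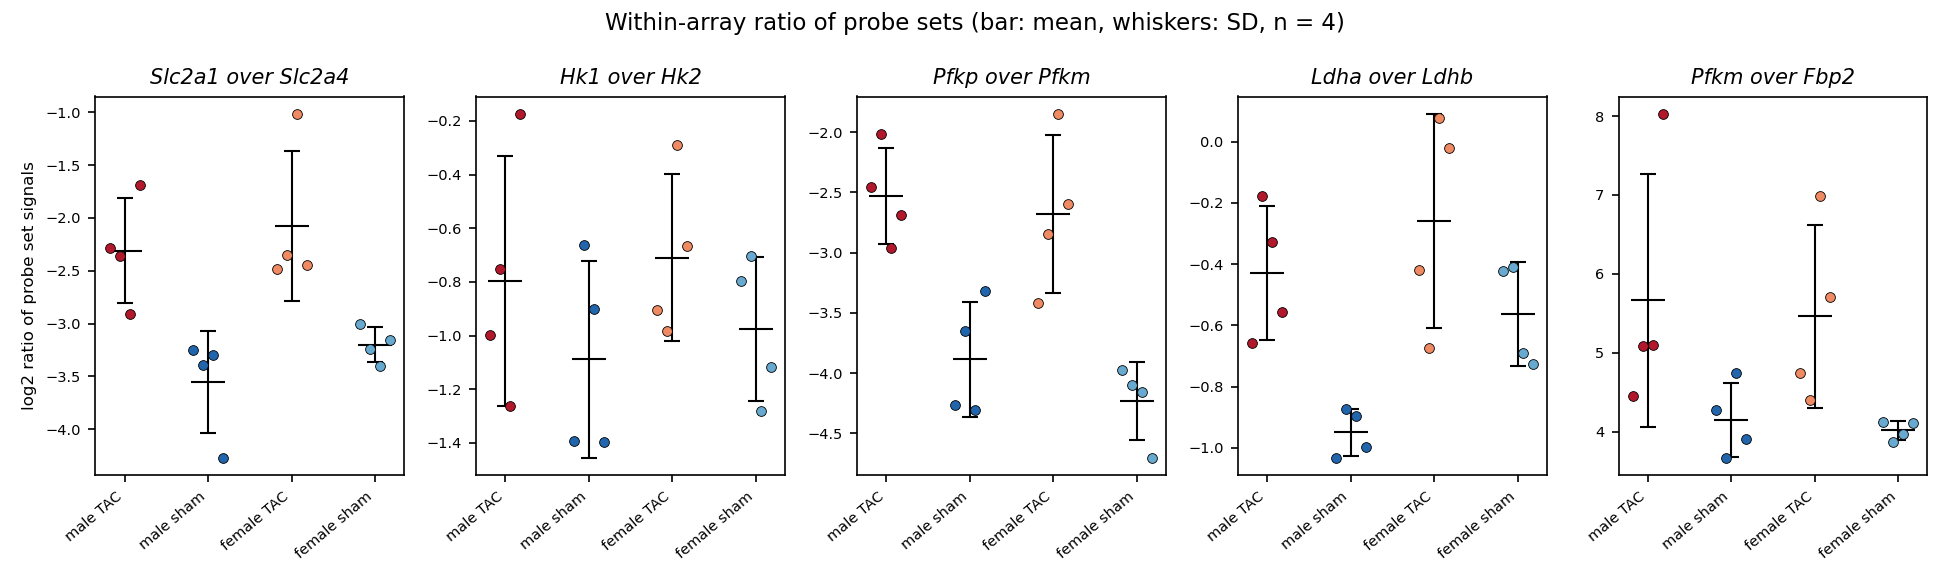
Within-array log2 ratio of probe set signals (vertical axis; its level has no meaning across pairs) by group for 5 pairs. Points are arrays, the bar is the mean of 4 and the whiskers the SD. The Slc2a1 to Slc2a4 and Pfkp to Pfkm ratios of TAC arrays all lie above those of sham arrays of the same sex, while the Hk1 to Hk2 ratios overlap.

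Aldoa, Pkm and Ldha, which act further down the path, were called in no comparison. Aldoa, the muscle aldolase, averaged 24099.4 ± 3602.2 in male TAC and 23196.8 ± 1427.9 in male sham, and 25535.4 ± 4677.1 in female TAC and 22093.1 ± 390.1 in female sham on its main probe set. Its 4 probe sets gave log2 fold changes between -0.04 and 0.17 in the average, and all carry the suffix that marks possible cross-hybridisation with related transcripts. With quantile normalization the main probe set became called in females (0.35, adjusted p = 0.00805) and in the average (0.25, adjusted p = 0.00356), so its status depends on the scaling. It was also called in the average with the 18S rRNA signal described below as a covariate (0.34, adjusted p = 0.0449). Pkm, pyruvate kinase of muscle and most other tissues, averaged 4698.4 ± 175.8 in male TAC and 5224.8 ± 497.7 in male sham, and 4441.7 ± 463.7 in female TAC and 5416.0 ± 1102.1 in female sham. Its log2 fold change in the average was -0.21 (95% confidence interval -0.39 to -0.02, adjusted p = 0.0867). It became called at -0.27 without female sham array 4 (adjusted p = 0.0127) or with quantile normalization (adjusted p = 0.029). The probe set does not separate the splice forms of Pkm.

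Ldha, the subunit of lactate dehydrogenase that prevails in glycolytic muscle, averaged 10475.9 ± 1294.5 in male TAC and 9531.0 ± 1024.8 in male sham, and 11055.0 ± 2493.1 in female TAC and 9956.3 ± 524.3 in female sham. Its log2 fold change in the average was 0.13 (95% confidence interval -0.07 to 0.32, adjusted p = 0.329). Set against Ldhb, the subunit that prevails in the heart, its within-array log2 ratio was higher in TAC by 0.52 in males, without overlap (exact permutation p = 0.0286, adjusted p = 0.0476), by 0.30 in females (p = 0.143) and by 0.41 over both sexes (p = 0.00449, adjusted p = 0.00561). Ldhb itself fell by 0.28 on the log2 scale in the average (adjusted p = 0.00335) and by 0.39 in males (adjusted p = 0.00755), and it was at -0.18 in females (adjusted p = 0.232).

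The responses of the sexes were not told apart for any of the 10 genes. The female response minus the male response was called for 0 of the 17 probe sets and for 0 of all 13576 by limma. At an unadjusted p below 0.05 it held for 0 of the 17 and for 897 of all probe sets, or 6.61%. The difference with the highest absolute value was that of Slc2a1 1426599_a_at, 0.53 with a 95% confidence interval of -0.19 to 1.24. For Slc2a4 1415958_at it was 0.27 (-0.07 to 0.62), for Pfkm 0.08 (-0.27 to 0.44), for Pfkp 0.29 (-0.43 to 1.004) and for Fbp2 0.16 (-1.45 to 1.77). On the main Slc2a1 probe set, 1434773_a_at, it was 0.155 (-0.56 to 0.87). These intervals spanned more than 1 log2 unit for Slc2a1, Pfkp and Fbp2. Moderate differences between the sexes were thus not detectable with 4 arrays a group. Differences of the ratio changes between the sexes all had adjusted p = 0.941 (exact permutation within operation). Female sham against male sham gave 0 calls among the 17 probe sets, while 0.309% of all were called, and the lowest adjusted p of the limma fit was 0.56, for Pfkp, with a log2 difference of -0.44. Female TAC against male TAC also gave 0, against 0.0663% of all. Its lowest adjusted p in the limma fit was 0.771, for Slc2a1 1426599_a_at, with a log2 difference of 0.52.

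Other measurements moved with the operation. Over all 8272 tested genes, on 1 probe set per gene, 13.4% were called higher and 13.1% lower in the average. Of 7 cardiomyocyte markers, 6 fell in the average and 0 rose. Their summed signal ran from 185442 to 216622 in male TAC against 222282 to 251055 in male sham, and from 163271 to 200772 in female TAC against 224002 to 242487 in female sham. Of 9 fibroblast markers, 4 rose in the average (Col1a1, Col1a2, Col3a1 and Postn) and 0 fell. Pdgfra, Dcn, Lum, Tcf21 and Ddr2 were not called in the average. The summed signal of all 9 ran from 31016 to 53818 in male TAC against 17593 to 21379 in male sham, and from 29298 to 42923 in female TAC against 20920 to 24371 in female sham. Of 8 tested macrophage markers 5 rose, and of 8 endothelial markers 1 rose. Of 6 tested smooth muscle and pericyte markers 2 rose, of 2 adipocyte markers 1 fell, and the 2 tested neutrophil markers and 1 erythroid marker were not called. No marker of any list was at 0 in any group. In whole ventricle, fewer cells of a type and less RNA per cell cannot be told apart, and the part of these shifts in the changes of Slc2a4, Pfkm, Fbp2, Slc2a1 and Pfkp was not tested. Of 10 skeletal muscle markers 8 were too dim to be tested, and of the other two Casq1 rose.

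RNA quality measures differed too. The ratio of the Gapdh control signals at the 3 prime and 5 prime ends was 1.08 ± 0.07 in male TAC and 0.885 ± 0.039 in male sham, and 0.989 ± 0.030 in female TAC and 0.865 ± 0.058 in female sham (SD, n = 4 each), without overlap. The log2 signal of the 18S rRNA control was 10.3 ± 1.9 in male TAC and 13.3 ± 0.5 in male sham, and 10.2 ± 0.6 in female TAC and 11.9 ± 0.9 in female sham, with male TAC array 5 at 13.2 among the sham values. When the Gapdh ratio entered the fit as a covariate, 1 member probe set in place of 7 was called in the average, and over the whole array 640 probe sets were called in place of 3890. Pfkm was then at -0.05 (adjusted p = 0.882), Pfkp at 0.80 (0.217), Slc2a1 at 0.86 (0.174) and Fbp2 at -2.51 (0.0769). Slc2a4 1415958_at stayed called in the average and in males, while in females it was at -0.49 and lost its call (adjusted p = 0.111). The other Slc2a4 probe set, 1415959_at, was at -0.65 in the average (adjusted p = 0.157) and at -0.40 in males (0.564), so that its call was lost in both, as it was in females (-0.89, adjusted p = 0.0542). As the ratio did not overlap between TAC and sham arrays, its effect and that of the operation cannot be told apart. Female TAC and sham arrays did not overlap in the 18S signal either (highest TAC value 10.731, lowest sham value 10.738). In males only TAC array 5 lay among the sham values, so fits with the 18S signal separate it poorly from the operation. With the 18S signal as a covariate the calls of Pfkm (-0.34, adjusted p = 0.0867) and Slc2a1 1426599_a_at (adjusted p = 0.204) were lost in the average, and Aldoa became called, as given above. In males the calls of Pfkm (-0.35, adjusted p = 0.246), Pfkp (0.71, adjusted p = 0.272) and Slc2a4 1415959_at (-0.87, adjusted p = 0.0658) were lost. In females those of Pfkm (-0.33, adjusted p = 0.125) and Slc2a1 1426599_a_at (0.80, adjusted p = 0.0849) were lost. Fbp2 stayed called with a larger fall, -3.40 in the average and -3.86 in males. Male TAC array 5, with its 18S signal among the sham values, also had the lowest Fbp2 signal, 21.5. The part of this array in the larger fall was not tested.

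The neighbouring steps and branches were counted on 1 probe set per gene, averaged over the sexes, where 26.5% of the 8272 tested genes were called, 13.4% higher and 13.1% lower, with a median log2 fold change of -0.01. Among 15 tested genes of the other transporters and glycolytic enzymes 3 rose and 2 fell, with a median of -0.01. The phosphoglycerate mutases Pgam1 (0.68, adjusted p = 0.000291) and Pgam2 (0.29, adjusted p = 0.00538) rose, and Ldhb and the muscle enolase Eno3 (-0.23, adjusted p = 0.00715) fell. Outside the array's control probe sets, Gapdh, Eno1 and Gpi1 had no probe set with a single symbol and were not analysed here.

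Of 17 tested regulators of glycolysis and glucose uptake 3 rose and 7 fell, with a median of -0.31. Pik3r1, a regulatory subunit of phosphoinositide 3-kinase in insulin signalling, fell by 1.13 (adjusted p = 1.53e-05). Mef2a, a transcription factor of muscle genes known to act on Slc2a4, fell by 0.50 (adjusted p = 0.000111). Of the hypoxia-inducible factors Hif1a rose by 0.54 (adjusted p = 0.0144) and Epas1 fell by 0.67 (adjusted p = 0.000246), all on the log2 scale. Epas1 fell in males (-1.11, adjusted p = 0.000129) and was not called in females (-0.24, adjusted p = 0.387), and the difference of its responses was 0.87 (unadjusted p = 0.00176, adjusted p = 0.512).

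Of 20 tested glycogen genes 2 rose and 5 fell, with a median of -0.08. Ppp1r3c, a subunit that brings protein phosphatase to glycogen, rose by 1.45 (adjusted p = 2.56e-07), and the muscle glycogen phosphorylase Pygm fell by 0.76 (adjusted p = 4.36e-08). The phosphorylase kinase subunit Phkb and the brain-type phosphorylase Pygb were also lower (-0.63 and -0.46, adjusted p = 0.000751 and 0.00196). Of 13 tested genes of the pentose phosphate, polyol and hexosamine branches 3 rose and 0 fell. They were the pentose phosphate enzymes Pgls (0.52, adjusted p = 5.00e-05), Tkt (0.43, adjusted p = 0.00423) and Pgd (0.40, adjusted p = 0.0312). Gnpnat1, an enzyme of the hexosamine branch, was at -0.46 (adjusted p = 0.0565). Of 4 tested genes of lactate and pyruvate transport, Slc16a1, the lactate transporter MCT1, rose by 0.21 (adjusted p = 0.0125). In the same list the mitochondrial pyruvate carrier subunit Mpc1 fell by 0.48 (adjusted p = 6.92e-05), and Bsg, a chaperone of MCT1, fell by 0.30 (adjusted p = 0.00335). Emb, another chaperone of this transporter family, was at -0.42 (adjusted p = 0.129).

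Of 8 tested genes of the shuttles that carry NADH equivalents into mitochondria 0 rose and 5 fell, with a median of -0.44. Got1, the cytosolic aspartate aminotransferase, fell by 0.82 (adjusted p = 5.22e-08), the aspartate-glutamate carrier Slc25a13 by 0.75 (adjusted p = 9.91e-06), the oxoglutarate carrier Slc25a11 by 0.50 (adjusted p = 1.80e-05) and the cytosolic malate dehydrogenase Mdh1 by 0.44 (adjusted p = 0.000263). Over the 6 lists 33 of 77 tested genes were called, against 26.5% of all 8272 tested genes. These lists were chosen with earlier results of these data known. The number of called list genes was 15 with the 18S signal as a covariate, 8 with the Gapdh ratio and 27 without male TAC array 5 and female TAC array 3. Over the whole array, 3890 probe sets were called in the main fit, 1917 with the 18S signal and 640 with the Gapdh ratio. Of the 22 called genes named above, 10 stayed called with the 18S signal, 8 with the Gapdh ratio and 20 without the 2 arrays. With the 18S signal Ldhb, Eno3, Mef2a, Epas1, Mpc1, Bsg, Slc16a1, Phkb, Pygb, Tkt, Pgd and Mdh1 lost their calls. With the Gapdh ratio Pgam1, Ldhb, Pgam2, Eno3, Pik3r1, Epas1, Hif1a, Mpc1, Bsg, Slc16a1, Phkb, Pygb, Tkt and Pgd lost theirs, and Pgd turned to -0.14 (adjusted p = 0.816). Without the 2 arrays Hif1a and Pgd lost theirs. Pygm, Ppp1r3c, Pgls, Got1, Slc25a13 and Slc25a11 stayed called in all 3 fits. Cardiomyocyte markers fell in the same arrays, as given above.

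**Figure D4:**
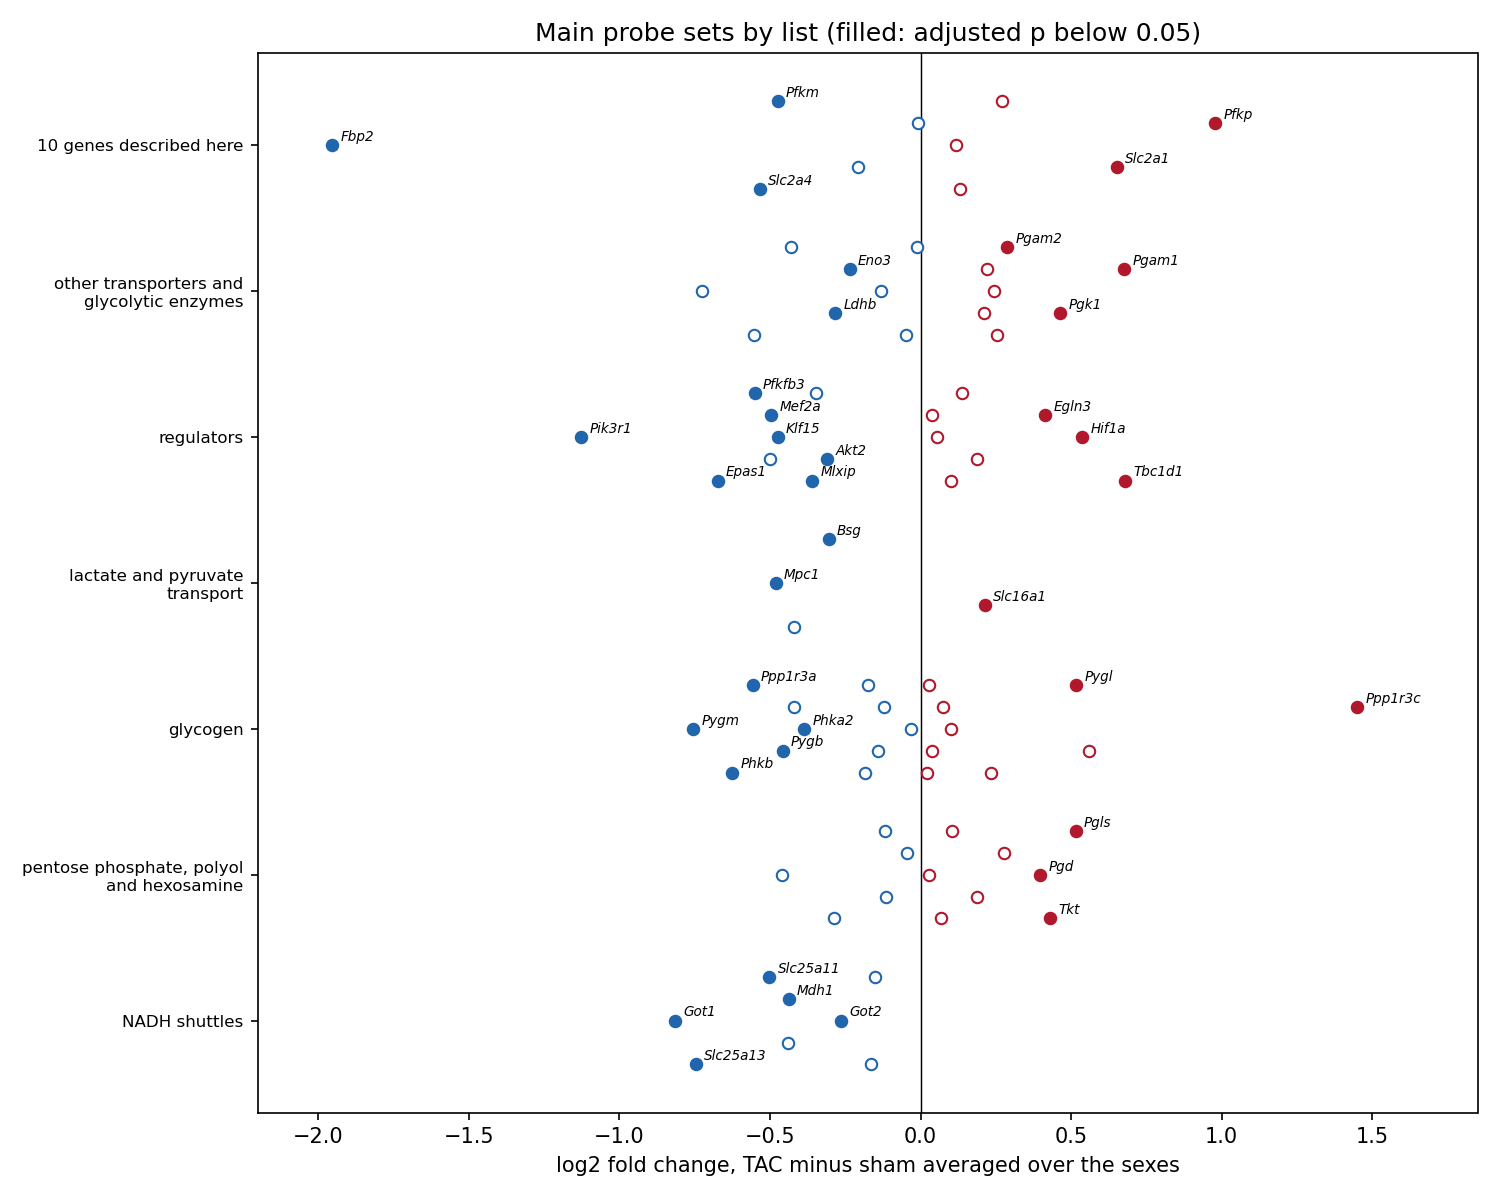
Log2 fold change (TAC minus sham averaged over the sexes, horizontal axis) of 1 probe set per gene in the 10 genes and the 6 lists of related genes. Filled points, named, have adjusted p below 0.05, and the vertical scatter within a list has no meaning. All 5 called genes of the NADH shuttle list lie below 0, and all 3 called genes of the pentose phosphate list lie above it.

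For the 4 genes with an absolute change of at least 0.5 in the average, the genes with the most similar course over the 16 arrays were ranked by the root mean square difference of their centred log2 signals. Nearest to Slc2a4 were Acacb (0.12 log2 units), Isca1 (0.13) and Fbxo3 (0.13). Nearest to Slc2a1 were Myo7a (0.19), Ramp3 (0.22) and Xirp1 (0.27). Pfkp was nearest to Fbln5 (0.28), Cldn5 (0.28) and Enah (0.29), and Fbp2 to Ces1d (0.40), Pla2g5 (0.65) and Scara5 (0.69). Likeness was set over 8271 other genes on arrays that share their groups and their quality differences, and it is a description only.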

How the data were processed

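Left ventricular RNA of 16 mice was measured on 16 arrays. The deposited values are signal intensities on a linear scale, 1 per probe set, made by the authors with GCOS, per the submitters' processing notes. Its version and settings are not given in the sources used here. The deposited intensities had been scaled globally: the mean after trimming 2% from each end was 500.21 to 500.25 on every array, and this scaling was kept. The series text calls the array RAE 430A, while the probe set names are those of the mouse 430A array.

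Signals were taken as log2(signal + 16). The 64 control probe sets and the 40% of the others with the lowest mean, a limit at a signal of 130.8, were left out, which left 13576. limma 3.58.1 in R 4.3.3 fitted 4 group means over all 16 arrays with an intensity trend, with 2-sided tests, Benjamini-Hochberg adjustment over all 13576 and a threshold of 0.05. Unless a ratio is named, every adjusted p is limma's. The script was tested on simulated data. Within-array ratios were compared by exact permutation, adjusted over 5 pairs. Genes were named from the platform annotation, on which 20380 probe sets had 1 symbol, 691 several and 1555 none. Named are all 10 genes and, from each list of related genes, the 4 with the smallest p in the average over the sexes, so that a named gene may miss the threshold. The 10 genes and all lists were chosen with earlier results of these data known. Promoter windows are RefSeq's, build GRCm38.p6, with no genome used.

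Groups were taken from the labels, which give no batch and call the arrays biological replicates. Within groups, arrays correlated at 0.927 to 0.957 and none were identical. The number of arrays limits the precision. Alternatives were quantile normalization, median centring, 1 or 64 in place of 16, no filter or 60%, no trend, array weights, only the 2 groups compared, RNA quality covariates, a replicate block and each array left out. Figures were drawn with matplotlib 3.10.9.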

Additional observations from a re-analysis of the deposited data

Results flagged for a closer look

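In 6 of the 72 groups of 4 arrays that were checked, 1 array lay so far from the other 3 that its gap to them was over 0.829 of the group's range, and chance gives about 1 such group in 20. Slc2a1 1434773_a_at read 1588.9 in female TAC array 3, against 653.7 to 679.0 in the other female TAC arrays. Slc2a1 1426599_a_at read 391.1 in male sham array 2, against 219.9 to 238.2. Hk1 1420901_a_at read 689.9 in female sham array 3, against 834.3 to 865.0. Hk2 read 3549.5 in male sham array 2, against 4203.0 to 4259.7. Pfkp 1430634_a_at, the dim probe set, read 19.8 in male TAC array 4, against 189.2 to 263.7. Fbp2 read 617.7 in female sham array 4, against 703.7 to 710.1.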

How the results depend on the processing

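Of the 5 main probe sets called in the average over the sexes, all kept their direction under every alternative and their call without any single array; the Gapdh ratio as a covariate ended the calls of Slc2a1, Pfkm, Pfkp and Fbp2, and the 18S covariate that of Pfkm. Called members in males numbered 5, but 2 with the 18S signal and 1 with the Gapdh ratio as a covariate. In females they numbered 7, but 3 with no intensity trend, 4 with the replicate block, 4 without male TAC 5 and female TAC 3, 0 with the Gapdh ratio, and 3 to 7 without single arrays. In the average they numbered 7, but 1 with the Gapdh ratio. Calls over the whole array fell as well. With the Gapdh ratio they went from 2422 to 398 in males, from 2045 to 498 in females and from 3890 to 640 in the average. With the 18S signal they went to 1000 in males. Without the intensity trend the female calls of Slc2a4, Pfkm and Fbp2 had adjusted p = 0.065, 0.0558 and 0.0527.

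Genes with no call changed sign. Hk2 in males (0.0044) gave -0.0448 with quantile normalization, -0.20 with 18S and -0.059 to 0.11 without single arrays. Hk2 in females (-0.02) gave 0.093 with median centring, 0.021 with the Gapdh ratio, 0.078 with the replicate block and -0.103 to 0.031 without single arrays. Hk2 in the average (-0.01) gave 0.077, 0.045 and 0.098 under the same 3 settings, 0.012 without male TAC 5 and female TAC 3, and -0.049 to 0.044 without single arrays. Aldoa in males gave -0.051 to 0.11 without single arrays, and Pkm in males 0.058 with the Gapdh ratio. The female minus male response, called nowhere, changed sign with median centring for Hk1 (0.0059), Hk2 (0.033) and Ldha (0.049), with quantile normalization for Ldha (0.0017), with 18S for Hk2 (0.056), with the Gapdh ratio for Pfkm (-0.078) and Ldha (0.027), with the block for Slc2a1 (-0.0042), and without male TAC 5 and female TAC 3 for Slc2a1 (-0.038) and Fbp2 (-0.053). Without single arrays it ran from -0.16 to 0.34 for Slc2a1, -0.26 to 0.048 for Hk1, -0.13 to 0.037 for Hk2 (-0.20 without male TAC 5 and female TAC 3), -0.13 to 0.12 for Ldha and -0.56 to 0.66 for Fbp2.

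Ratio changes kept their direction. Without single arrays they ran in males from 1.01 to 1.45 for Slc2a1 over Slc2a4, 1.18 to 1.54 for Pfkp over Pfkm, 0.44 to 0.60 for Ldha over Ldhb, 0.084 to 0.45 for Hk1 over Hk2 and 0.73 to 1.92 for Pfkm over Fbp2. In females they ran from 0.77 to 1.26, 1.28 to 1.80, 0.19 to 0.44, 0.12 to 0.36 and 0.93 to 1.79 for the same pairs. Over both sexes Hk1 over Hk2 ran from 0.17 to 0.36, and was 0.104 without male TAC 5 and female TAC 3. Calls within a sex were often lost with 3 arrays against 4. Deviations of same-numbered TAC and sham arrays correlated at -0.03 to 0.11 over 6 pairs, and those of arrays with different numbers at -0.12 to 0.11. The labels do not say what the numbers mean, and 6 pairs are too few to settle whether they pair the animals. With that replicate block over 6 pairs the ratio changes were 1.19, 1.32 and 1.16 (adjusted exact permutation p = 0.0521 each, for Slc2a1 over Slc2a4, Pfkp over Pfkm and Pfkm over Fbp2) and 0.37 for Ldha over Ldhb (0.117). The first 3 rest on the smallest exact p that 6 pairs allow, so their loss of the call does not show that the block weakened these ratio changes. The cause of these shifts was not tested.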

Other observations

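Gapdh, the glycolytic enzyme between aldolase and phosphoglycerate kinase, was read from the array's control probe sets, which the comparisons left out; probe sets that name Gapdh together with other genes were not used here. The signal at its 3 prime end averaged 27708 ± 3197 in male TAC and 29886 ± 2371 in male sham, and 24359 ± 4274 in female TAC and 25944 ± 1966 in female sham. At its 5 prime end it averaged 25657 ± 2815 in male TAC and 33830 ± 2890 in male sham, and 24677 ± 4634 in female TAC and 29976 ± 781 in female sham (SD, n = 4 each). TAC and sham arrays overlapped at both ends in both sexes.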
